A study of Homo sapiens and Mus musculus with 99 samples.

Results

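NCI-H292 cells were treated for 4 h with an extract of the fungus Alternaria alternata, a mould whose spores carry airway allergens, and the gene counts of the treated cultures were set against those of mock-treated cultures. NCI-H292 is an epithelial line from a non-small cell lung cancer. The comparison rests on 4 of the 99 libraries of the series, chosen by their labels: 2 with the extract labelled WT ALT and 2 with DPBS, the buffered saline that served as mock. The same experiment, here called H292-1, also held 2 libraries each with the extracts labelled aegs KO ALT and aegl KO ALT. These 4 libraries entered the fit, so that all 8 share an estimate of the spread, and their levels are given as description only. Cells, medium, time and kit are the same over the 4 groups, and the genotype of the fungus behind an extract is known here only from its label. The series' design text asks which transcripts lung epithelial cells change early after the extract or its pore-forming proteins, and calls the libraries biological replicates without saying what separated them, so the spread between them may be in part technical. For comparison, H1437-4 gave WT ALT (2 libraries) and DPBS (2) in NCI-H1437, another non-small cell lung cancer line, and H292-2 gave the joined proteins Aeg-S/L (2) and DPBS (2) in NCI-H292, all at 4 h.

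Airway epithelial cells sense fungal products and membrane damage and answer first with immediate early genes. These are transcribed within minutes without new protein synthesis, and many encode transcription factors. MAP kinases such as ERK and the factor NF-kB switch on their own inhibitors together with cytokines, chemokines and prostaglandin synthesis. In a separate programme, NRF2 drives genes for glutathione synthesis and for the reduction of quinones and aldehydes, which lung cancer lines often use heavily.

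The 8 libraries of H292-1 held 33.0 to 45.5 M counted fragments. All 9 epithelial markers, among them KRT7 and KRT8, were at 1 CPM or more (counts scaled by TMM to a library of 1 M), with sums of 5914 and 5923 CPM in the WT ALT libraries and of 4900.03 and 4978 CPM in the DPBS libraries. Of 8 leukocyte markers, CD3E, LYZ and TYROBP were among those with 0 counts in both groups and the sums were 1.39 to 1.52 CPM under WT ALT and 2.15 to 3.31 CPM under DPBS. Of 6 matched fibroblast and endothelial markers 3 were at 1 CPM or more, with sums of 94.4 to 98.2 CPM under WT ALT and 79.0 to 90.3 CPM under DPBS. CDH5 made up 67.2 and 66.5 CPM of these under WT ALT and 53.5 and 56.9 CPM under DPBS, COL1A1 most of the rest, and PDGFRA was at 0 in both groups. Genes of the mitochondrial genome took 1.02% and 0.986% of counts in the WT ALT libraries, against 2.79% and 2.51% in the DPBS libraries, and 0.554% to 2.61% in the libraries with the other extracts. The part of the mitochondrial share in the results below was not tested, except where values without the lowest library, aegl KO ALT 1, are given.

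After TMM scaling, transcripts changed under the extract in both directions at about equal frequency. Of 16613 genes tested with edgeR, 1924 (11.6%) rose and 1874 (11.3%) fell at an adjusted p under 0.05, and 618 (3.72%) rose and 717 (4.32%) fell at least 2-fold. The median log2 change over all genes was −0.01. TMM scaling takes most genes as unchanged, so a shift shared by most genes could not be seen here. In all 3798 genes (22.9%) were called. With WT ALT 1 left out 1481 were called, with WT ALT 2 left out 1520, with DPBS 1 left out 1530 and with DPBS 2 left out 2519. The count was 5718 when only the 4 WT ALT and DPBS libraries were fitted. The 20 largest increases were led by FOS, FOSB, IL6, CXCL8 and CXCL2, and the 20 largest decreases held HMOX1, AKR1C2, CXCR4, ALDH3A1, BMF, WNT5A and AKR1C1.

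Immediate early transcription factors led the increases. FOS (ENSG00000170345.5, hg19 chromosome 14, 75745477 to 75748933), which pairs with JUN in the factor AP-1, stood at 3086 and 3048 CPM under WT ALT, against 4.67 and 5.41 CPM under DPBS. That was an increase of 9.25 ± 0.20 on the log2 scale, or 609.8-fold (adjusted p = 1.76e-09). FOSB, its close relative, had 2028 and 1935 CPM against 4.43 and 4.33 CPM, an increase of 8.82 ± 0.17. The WT ALT libraries lay close to each other for both genes and far above the DPBS libraries. EGR1 (ENSG00000120738.7, hg19 chromosome 5, 137801179 to 137805004), a zinc finger factor of growth signalling, had 739 and 663 CPM under WT ALT and 6.75 and 10.6 CPM under DPBS. The orphan nuclear receptor NR4A1 had 1288 and 1230.5 CPM against 24.3 and 36.8 CPM, and its relative NR4A2 had 647 and 623 CPM against 28.1 and 24.4 CPM. These 3 genes rose by 6.34 ± 0.27, 5.37 ± 0.29 and 4.6 ± 0.15 on the log2 scale. JUN rose by 4.87 ± 0.25, the stress factor ATF3 by 5.15 ± 0.14, KLF2 by 5.6 ± 0.35 and MYC by 2.41 ± 0.16. Scaled by exon length, the level of FOS under WT ALT was 947 CPM per kb, against 985.9 CPM per kb for the actin gene ACTG1. Of 24 listed factors, all tested, 20 rose and 2 fell, with a median change of 3.75, where 11.6% of all genes rose and 11.3% fell. The lists here and below were chosen with earlier results of these data known. Their counts are description, to be read against these shares of all genes.

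The 2 that fell were other AP-1 subunits. JUNB, which can oppose JUN, had 387 and 369 CPM under WT ALT and 627 and 697 CPM under DPBS, a change of −0.81 ± 0.15 (adjusted p = 0.00319). FOSL2 changed by −0.43 ± 0.13 (adjusted p = 0.0403), a call that was lost without WT ALT 1, WT ALT 2, DPBS 1 or DPBS 2 (adjusted p 0.135 to 0.241).

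**Figure D1:**
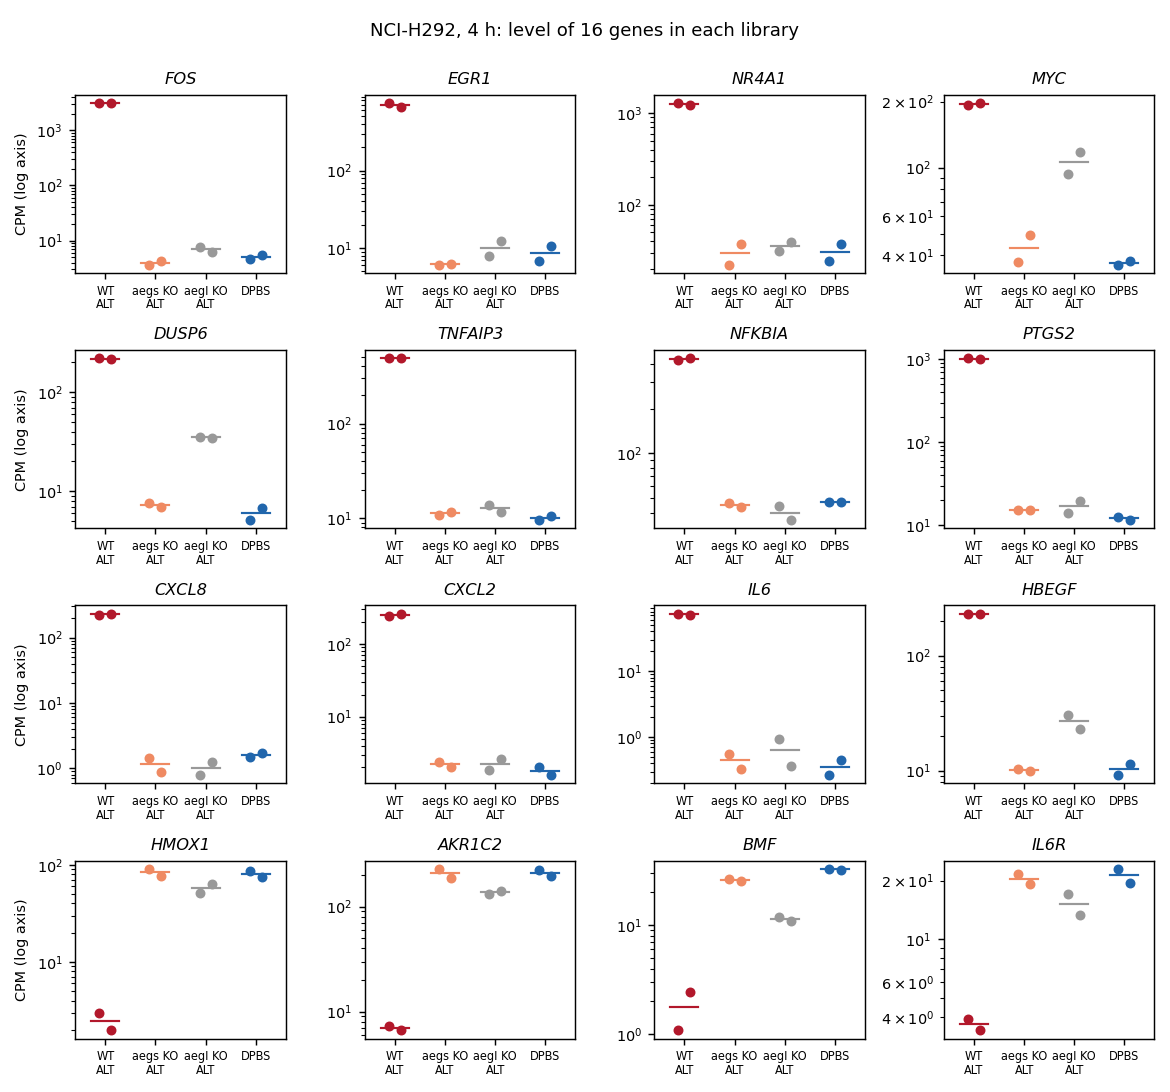
Level of 16 genes in each of the 8 NCI-H292 libraries (CPM, log axis), 2 points a group with a line at their mean, for WT ALT, aegs KO ALT, aegl KO ALT and DPBS. The first 12 genes are high in both WT ALT libraries and the last 4 (HMOX1, AKR1C2, BMF, IL6R) are low there, without overlap with DPBS.

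The panels of levels by library also show the extracts with a KO label. FOS stood at 3.63 and 4.23 CPM with aegs KO ALT and 7.77 and 6.35 CPM with aegl KO ALT, and CXCL8 at 1.43 and 0.864 CPM and 0.78 and 1.25 CPM in the same order. For some genes the aegl KO ALT libraries lay between WT ALT and DPBS. MYC was at 93.8 and 118 CPM there, DUSP6 at 35 and 34.8 CPM, HBEGF at 30.5 and 23.2 CPM and the apoptosis gene BMF at 11.9 and 11 CPM. With aegs KO ALT, MYC was at 37 and 49.5 CPM, DUSP6 at 7.63 and 6.96 CPM, HBEGF at 10.3 and 9.88 CPM and BMF at 26.5 and 25.1 CPM. BMF, and by a small margin DUSP6, thus lay between WT ALT and DPBS with aegs KO ALT too. These values share the DPBS libraries with the comparison above and were not tested here.

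Inhibitors of ERK and other MAP kinases rose with the factors. DUSP6 (ENSG00000139318.7, hg19 chromosome 12, 89741009 to 89747048), a phosphatase that removes phosphate from ERK, had 219 and 214 CPM under WT ALT and 5.12 and 6.82 CPM under DPBS, an increase of 5.19 ± 0.16. DUSP1, which acts on JNK and p38 as well, had 790.4 and 788 CPM against 20.2 and 26.5 CPM and rose by 5.08 ± 0.20, and nuclear DUSP5 rose by 4.25 ± 0.15. SPRY4, an inhibitor upstream of ERK, had 20.05 and 18.7 CPM against 0.957 and 1.23 CPM and rose by 4.15 ± 0.21. Of 18 tested genes of ERK feedback and output (20 listed), 16 rose, with a median of 1.73, and 15 or 16 rose without any 1 of the 4 libraries. The members that were not called were DUSP7 (−0.44 ± 0.15) and IER3 (1.55 ± 0.73).

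NF-kB feedback genes followed the same direction, with a smaller median change than the ERK list. TNFAIP3 (ENSG00000118503.10, hg19 chromosome 6, 138188351 to 138204449), the ubiquitin-editing enzyme A20 that ends NF-kB signalling, had 487 and 485 CPM under WT ALT and 9.57 and 10.6 CPM under DPBS, and rose by 5.59 ± 0.15 (adjusted p = 7.08e-09). NFKBIA, which encodes the inhibitor IkB-alpha, had 424 and 435 CPM against 47.4 and 47 CPM and rose by 3.19 ± 0.14. NFKBIZ, a nuclear cofactor for late NF-kB targets, rose by 3.25 ± 0.21. Of 15 tested members 11 rose (median 1.0), and 9 or 10 rose without any 1 of the 4 libraries. BCL3, TNIP1, TNIP3 and TRAF1 were not called, with changes between −0.07 and 0.33. Among 9 factors of mRNA decay 4 rose, led by ZFP36, which destabilises cytokine transcripts, with 242 and 238 CPM against 21.3 and 15.9 CPM and an increase of 3.69 ± 0.26.

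The neutrophil-attracting chemokines CXCL8, CXCL2, CXCL1 and CXCL3 were low under DPBS and rose under WT ALT. CXCL8 had 219 and 234 CPM under WT ALT and 1.48 and 1.71 CPM under DPBS, an increase of 7.15 ± 0.24. CXCL2 had 242 and 261 CPM against 2.06 and 1.56 CPM, CXCL1 51.4 and 51.7 CPM against 0.766 and 0.871 CPM and CXCL3 20.4 and 16.2 CPM against 0.263 and 0.481 CPM. Their increases were 7.1 ± 0.20, 5.98 ± 0.23 and 5.64 ± 0.40. CXCL1, CXCL2 and CXCL3 are close copies of one another on chromosome 4, so counts may in part be shared between them. Of 7 tested members 4 rose (median 5.64), and 5 rose with DESeq2. The interferon-inducible CXCL11 had 2.89 and 3.17 CPM under WT ALT and 1.99 and 1.23 CPM under DPBS and was not called (adjusted p = 0.109). CCL20, which attracts dendritic cells and lymphocytes through CCR6, had 8.44 and 10.2 CPM under WT ALT and 0.383 and 0.030 CPM under DPBS and rose by 5.38 ± 0.80. The DPBS libraries of CCL20 lie far apart, and its increase was 8.13 ± 1.25 without DPBS 1 and 4.6 ± 0.84 without DPBS 2.

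The 250 bases before the RefSeq start of each gene in a table of promoters were searched on both strands. The motifs were kappaB, a sequence that NF-kB dimers bind, and the CArG box bound by SRF. The kappaB motif was written as GGGRNNYYCC (R for A or G, Y for C or T, N for any base). Sites that depart from this pattern were not counted. Shown are those of the 3 chemokine copies, of IL6 and of TNFAIP3, with matches to the kappaB motif in capitals, and that of EGR1 with CArG boxes in capitals. All run 5′ to 3′ on the strand of the gene and are credited to RefSeq on GRCh38.p14.
CXCL1 (chr4:73869143-73869392, + strand): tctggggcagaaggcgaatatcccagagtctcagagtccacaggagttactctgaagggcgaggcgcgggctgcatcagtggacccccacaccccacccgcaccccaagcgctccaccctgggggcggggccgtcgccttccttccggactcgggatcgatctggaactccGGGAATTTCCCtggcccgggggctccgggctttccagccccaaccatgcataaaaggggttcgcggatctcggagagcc
CXCL2 (chr4:74099196-74099445, - strand): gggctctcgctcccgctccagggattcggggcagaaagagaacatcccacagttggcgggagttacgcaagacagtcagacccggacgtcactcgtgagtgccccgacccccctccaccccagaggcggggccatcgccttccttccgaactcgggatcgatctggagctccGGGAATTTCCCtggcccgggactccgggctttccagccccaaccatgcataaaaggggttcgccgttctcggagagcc
CXCL3 (chr4:74038690-74038939, - strand): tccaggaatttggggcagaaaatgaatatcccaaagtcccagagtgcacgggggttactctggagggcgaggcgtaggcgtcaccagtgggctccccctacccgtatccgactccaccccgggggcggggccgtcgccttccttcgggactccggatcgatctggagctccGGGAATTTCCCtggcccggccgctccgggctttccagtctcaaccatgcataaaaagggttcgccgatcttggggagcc
IL6 (chr7:22726950-22727199, + strand): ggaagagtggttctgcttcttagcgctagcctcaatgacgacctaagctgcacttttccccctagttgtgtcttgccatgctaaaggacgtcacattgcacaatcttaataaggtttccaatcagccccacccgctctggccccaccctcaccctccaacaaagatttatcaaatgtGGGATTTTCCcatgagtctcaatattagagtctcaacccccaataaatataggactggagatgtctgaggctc
TNFAIP3 (chr6:137867009-137867258, + strand): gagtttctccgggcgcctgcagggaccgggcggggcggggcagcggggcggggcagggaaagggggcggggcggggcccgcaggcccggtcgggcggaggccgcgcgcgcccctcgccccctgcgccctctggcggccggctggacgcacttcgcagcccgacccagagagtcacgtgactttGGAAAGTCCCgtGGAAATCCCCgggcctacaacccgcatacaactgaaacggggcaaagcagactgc
EGR1 (chr5:138465229-138465478, + strand): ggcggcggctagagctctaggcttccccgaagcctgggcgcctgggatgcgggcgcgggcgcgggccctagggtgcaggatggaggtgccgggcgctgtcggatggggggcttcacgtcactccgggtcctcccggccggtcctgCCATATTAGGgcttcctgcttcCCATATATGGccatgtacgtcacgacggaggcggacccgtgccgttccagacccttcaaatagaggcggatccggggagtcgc
In CXCL1 and CXCL3 the match began 79 bases before the start, in CXCL2 78 bases and in IL6 73 bases before it. TNFAIP3 held a pair of adjoining matches, 67 and 55 bases before its start, and EGR1 a pair of CArG boxes 105 and 83 bases before its start. Over 80 positions around the match, CXCL1 had the same base as CXCL3 at 73 and as CXCL2 at 66. A kappaB match lay in 5 of 6 CXC chemokine promoters in the table (CXCL1, CXCL2, CXCL3, CXCL10 and CXCL11) and in 6 of 13 of the NF-kB feedback genes. It lay in 11.7% of the 11401 tested genes with a promoter in the table, in 15.4% of the 403 that rose at least 2-fold and in 9.74% of the 462 that fell at least 2-fold. CXCL10 and CXCL11, with a match, were not called. CXCL8, without a match to this pattern in this window, rose, and a site with other letters there would have been missed. CArG boxes lay in 1.03% of tested genes and 2.23% of those that rose at least 2-fold. The palindromic CRE, TGACGTCA, lay in 2.79% of tested genes and 3.47% of those that rose at least 2-fold. The AP-1 motif, TGACTCA or TGAGTCA, was searched as well and was most frequent among genes that fell. It lay in 2.96% of tested genes, 3.72% of those that rose at least 2-fold and 6.28% of those that fell at least 2-fold. Of 19 promoters of immediate early factors 0 held it. These are matches of letters, and no binding was measured.

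Among cytokines, IL6 and the IL-6 relative LIF rose. IL6 (ENSG00000136244.7, hg19 chromosome 7, 22765503 to 22771621) had 74.8 and 70.6 CPM under WT ALT and 0.263 and 0.451 CPM under DPBS, an increase of 7.69 ± 0.35. LIF had 249 and 235 CPM against 15.2 and 14.5 CPM and rose by 4.02 ± 0.13, and IL20, an epithelial cytokine of the IL-10 family, had 15.2 and 13.8 CPM against 0.694 and 0.601 CPM. IL24 and IL11 had 97.7 and 103 CPM and 26.9 and 30.3 CPM under WT ALT, against 60.3 and 54.9 CPM and 15.5 and 13.5 CPM under DPBS, and rose by 0.80 ± 0.14 and 0.98 ± 0.15. The related IL19 had 0 counts under WT ALT and 0.335 and 0.571 CPM under DPBS, at least 10.1-fold lower with 3 counts over the group as the floor. Of 8 tested members of this list, 6 rose and 1 fell, with a median of 0.99, also with IL19 at its bound. The call of IL19 was lost without WT ALT 1, WT ALT 2, DPBS 1 or DPBS 2 (adjusted p 0.0702 to 0.124). In the IL-1 family, the alarmin IL1A had 711 and 697 CPM under WT ALT and 37.3 and 39.2 CPM under DPBS and rose by 4.2 ± 0.17. IL1B had 153 and 153 CPM against 19.9 and 21.5 CPM and rose by 2.89 ± 0.16. Their antagonist IL1RN went the other way, with 14.2 and 12.5 CPM under WT ALT, 43.5 and 36.1 CPM under DPBS and a change of −1.58 ± 0.26 (adjusted p = 0.00202). The other 6 of 9 tested alarmins and IL-1 family genes were not called, where 11.6% of all genes rose and 11.3% fell.

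Few prostaglandin genes and EGF receptor ligands rose, and larger parts of the calcium list and of the YAP and SRF list did. Counts in this paragraph stand beside 11.6% of all tested genes that rose and 11.3% that fell. PTGS2 (ENSG00000073756.7, hg19 chromosome 1, 186640923 to 186649559), the inducible cyclooxygenase, had 1024 and 1007 CPM under WT ALT and 12.6 and 11.6 CPM under DPBS, and PTGER4, a receptor for prostaglandin E2, had 66.4 and 64.8 CPM against 1.32 and 1.56 CPM. They rose by 6.39 ± 0.18 and 5.51 ± 0.27, and the other 7 of 9 tested genes of prostaglandin synthesis and reception were not called. Of 7 ligands of the EGF receptor 2 rose, HBEGF with 232 and 231 CPM against 9.09 and 11.4 CPM (4.5 ± 0.18) among them, and 1 fell, EPGN, with 0.392 and 0.478 CPM under WT ALT and 2.73 and 2.91 CPM under DPBS (−2.69 ± 0.35). CCN1, a matricellular protein made under YAP and SRF, had 2699 and 2644 CPM against 31.7 and 32 CPM and rose by 6.39 ± 0.16, and CCN2 rose by 4.31 ± 0.34. Of 12 tested YAP and SRF targets 6 rose, and 8 with DESeq2. Of 12 tested genes that answer to calcium and calcineurin 8 rose and 1 (STC2) fell, with a median of 1.27. RCAN1, a calcineurin inhibitor, had 161 and 166 CPM against 31.2 and 35 CPM (2.3 ± 0.14), and SIK1 rose by 1.48 ± 0.12. STC2 was not called without DPBS 1, WT ALT 1 or WT ALT 2. The repressor genes HES1, a Notch target, and ID2 rose by 3.34 ± 0.13 and 3.5 ± 0.30, the largest increases of their lists. Of 10 tested Notch and HES genes 5 rose and 2 fell. Of 14 tested TGF-beta, BMP and ID genes 7 rose and 2 fell, and ID1 (−0.10 ± 0.13) was not called. Coagulation and plasminogen genes rose in 5 of 14 cases, with F3 (tissue factor) at 1.61 ± 0.14, PLAUR at 1.65 ± 0.13 and SERPINB2 at 2.26 ± 0.15, and 2 fell (THBD and MMP13). Without DPBS 2 or WT ALT 2, 4 rose and 1 fell, and without DPBS 1 or WT ALT 1, 4 rose and neither fall was called.

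**Figure D2:**
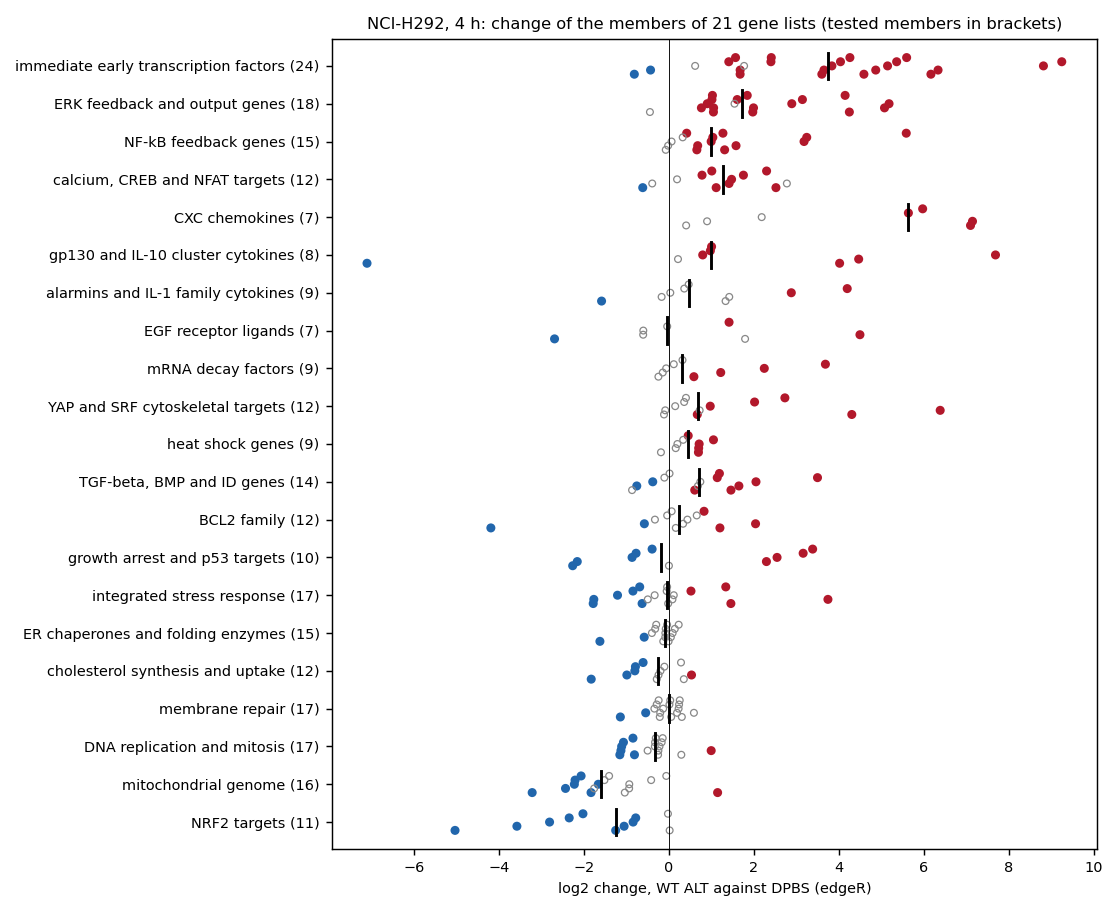
Log2 change of each tested member of 21 gene lists, WT ALT against DPBS in NCI-H292. Filled points passed the test (red rose, blue fell), open points did not, and the black bars are medians. The medians run between 5.64 for CXC chemokines and −1.58 for the mitochondrial genome, and the point at the far left is IL19, which has 0 counts under WT ALT.

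Targets of NRF2 fell. HMOX1 (ENSG00000100292.12, hg19 chromosome 22, 35776354 to 35790207), the haem-degrading oxygenase that many stresses induce, had 2.98 and 1.97 CPM under WT ALT and 86.9 and 75 CPM under DPBS. That was a change of −5.03 ± 0.22, or 32.7-fold lower (adjusted p = 1.37e-07). OSGIN1 had 10.1 and 9.83 CPM against 65.5 and 74 CPM and fell by 2.8 ± 0.14. The subunits of glutamate-cysteine ligase, the limiting enzyme of glutathione synthesis, fell together: GCLC had 51 and 47.5 CPM against 209.7 and 189 CPM (−2.02 ± 0.12), and GCLM 108 and 107 CPM against 274 and 236 CPM (−1.25 ± 0.13). The quinone reductase NQO1 fell by 0.84 ± 0.13 and thioredoxin reductase TXNRD1 by 1.05 ± 0.13. The cystine importer SLC7A11, counted with the integrated stress response, had 154 and 159.7 CPM under WT ALT and 609 and 465 CPM under DPBS (−1.78 ± 0.14). Of 11 listed targets, all tested, 9 fell, with a median of −1.25, where 11.3% of all genes fell. Without any 1 of the 4 libraries 8 fell, and the call that was lost each time was SRXN1 (−0.78 ± 0.25, adjusted p = 0.0483, and 0.056 to 0.252 without a library). Among the members that were not called, ME1 was at 0.02 ± 0.11.

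Aldo-keto reductases and an aldehyde dehydrogenase fell further than most of the list. AKR1C2 (ENSG00000151632.12, hg19 chromosome 10, 5029967 to 5060223), which reduces steroids and aldehydes, had 7.24 and 6.63 CPM under WT ALT and 223 and 195 CPM under DPBS, a change of −4.91 ± 0.16. Its neighbours AKR1C1 and AKR1C3 had 3.32 and 3.67 CPM and 5.03 and 4.27 CPM under WT ALT, against 44.8 and 38.5 CPM and 26.3 and 26 CPM under DPBS, with changes of −3.57 ± 0.21 and −2.49 ± 0.15. AKR1C3 is named for its place beside the others, after its values were seen. The AKR1C genes are near-identical copies, so how the fall divides between them is uncertain. ALDH3A1 had 3.59 and 2.33 CPM against 60.9 and 49.3 CPM (−4.22 ± 0.21), and the pseudogene NMRAL2P 0.935 and 1.43 CPM against 14.8 and 11.6 CPM (−3.48 ± 0.25). The promoter pattern TGACNNNGC, the core of the antioxidant response element, lay in 3 of 8 promoters of listed targets in the table (GCLM, ME1 and TXNRD1), in 12.3% of tested genes and in 11.7% of those that fell at least 2-fold.

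**Figure D3:**
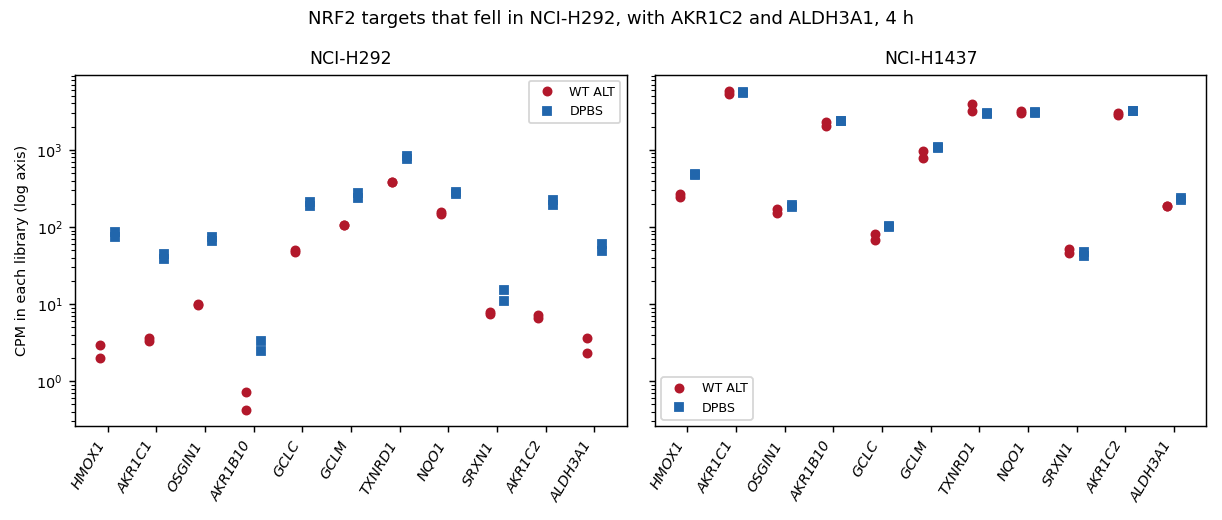
Level in each library (CPM, log axis) of the 9 listed NRF2 targets that fell in NCI-H292, AKR1C2 and ALDH3A1, with WT ALT in red and DPBS in blue, in NCI-H292 (left) and NCI-H1437 (right). In NCI-H292 the WT ALT points of HMOX1, AKR1C1, AKR1C2 and ALDH3A1 lie more than 10-fold below the DPBS points, and in NCI-H1437 most pairs lie close together.

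Apoptosis and growth arrest genes had calls in both directions, to be read against the 11.6% of all tested genes that rose and the 11.3% that fell. BMF, a BH3-only activator of cell death, had 1.09 and 2.45 CPM under WT ALT and 32.7 and 31.8 CPM under DPBS, a change of −4.19 ± 0.27. The survival gene MCL1 had 1228 and 1200.5 CPM against 293 and 296 CPM and rose by 2.04 ± 0.14, BCL2L1 rose by 0.83 ± 0.11 and the BH3-only gene PMAIP1 by 1.21 ± 0.20. In all 3 of 12 BCL2 family genes rose and 2 fell, of which 1 (BMF) fell without DPBS 1 or WT ALT 1. Of 10 growth arrest and p53 targets 4 rose and 5 fell, and 4 rose and 3 fell without DPBS 1, WT ALT 1 or WT ALT 2. GADD45A and GADD45B rose by 2.3 ± 0.19 and 3.16 ± 0.12, whereas SESN1 had 12.3 and 11.2 CPM under WT ALT and 58.4 and 53.9 CPM under DPBS (−2.26 ± 0.14), TP53INP1 fell by 2.15 ± 0.13 and the cyclin kinase inhibitor CDKN1A by 0.86 ± 0.11. Of 17 genes of DNA replication and mitosis 6 fell and 1 (CCND1) rose, with a median of −0.32. CCND1 was not called without DPBS 1, and 11 fell and 2 rose when only the 4 WT ALT and DPBS libraries were fitted. MKI67, the proliferation marker, had 229 and 223 CPM against 516 and 487 CPM (−1.15 ± 0.19), TOP2A was at −1.07 ± 0.14 and AURKA at −1.11 ± 0.12.

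The surface receptors CXCR4 and IL6R fell. CXCR4, the receptor of CXCL12, had 0.241 and 0.478 CPM under WT ALT and 10.3 and 9.04 CPM under DPBS (−4.74 ± 0.29). IL6R, the receptor chain for IL-6, had 3.92 and 3.4 CPM against 23 and 19.5 CPM (−2.54 ± 0.19, adjusted p = 8.24e-06), while IL4R, which binds IL-4 and IL-13, had 143 and 134 CPM against 68.9 and 65.7 CPM and rose by 1.04 ± 0.11. Of 16 tested cytokine receptors 3 rose and 3 fell, with a median of −0.02, where 11.6% of all genes rose and 11.3% fell, and 2 rose and 1 fell without DPBS 2, WT ALT 1 or WT ALT 2. WNT5A, a non-canonical WNT ligand, had 0.181 and 0.239 CPM against 2.85 and 2.97 CPM (−3.77 ± 0.43). The non-coding RNA LNCTSI had 0 counts under WT ALT and 1.15 and 0.871 CPM under DPBS, at least 22.4-fold lower.

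Lists of stress and metabolic genes had calls in both directions, to be read against the 11.6% of all tested genes that rose and the 11.3% that fell. Of 17 genes of the integrated stress response, 4 rose and 6 fell. PPP1R15A (GADD34), the phosphatase subunit that ends this response, had 1494 and 1452 CPM under WT ALT and 120.2 and 98.9 CPM under DPBS (3.75 ± 0.17), and the secreted GDF15 rose by 1.46 ± 0.19. NUPR1 and DDIT4 fell by 1.76 ± 0.23 and 1.2 ± 0.15. Of 15 ER chaperones and folding enzymes 2 fell, a share near that of all genes, HERPUD1 with 33 and 35 CPM against 103 and 106 CPM (−1.62 ± 0.12) among them, and 1 fell without DPBS 1, WT ALT 1 or WT ALT 2. Of 9 tested heat shock genes 5 rose, with DNAJB1 at 1.05 ± 0.12, and 3 rose without DPBS 1 or DPBS 2 and 2 without WT ALT 1 or WT ALT 2. In cholesterol synthesis and uptake 1 of 12 rose, a call lost without any 1 of the 4 libraries, and 5 fell, led by INSIG1 with 49.7 and 51.8 CPM against 176 and 183 CPM (−1.82 ± 0.11), and HMGCS1 fell by 0.80 ± 0.14. Of 17 membrane repair genes 15 were not called and 2 fell, again near the share of all genes, VPS4B with 52.9 and 53.4 CPM against 118 and 116 CPM (−1.14 ± 0.12) among them. In that list 1 fell without any 1 of the 4 libraries, and with only the 4 WT ALT and DPBS libraries in the fit 3 rose and 5 fell. In the epithelial junction list, 3 of 14 rose, OCLN (occludin) by 1.52 ± 0.16 and CLDN4 by 1.08 ± 0.15 among them, and 1 (PKP1) fell, a call lost without DPBS 1, WT ALT 1 or WT ALT 2. Interferon response genes rose in 1 case of 10, IRF1 (1.76 ± 0.12), and fell in 3, IFIT3 (−1.69 ± 0.17) among them, and 1 fell without DPBS 1, DPBS 2 or WT ALT 1. Of 9 tested mucin and mucus genes 2 rose and 2 fell, and no call was left without WT ALT 1, WT ALT 2, DPBS 1 or DPBS 2.

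Of 16 tested genes of the mitochondrial genome 1 rose and 7 fell, with a median of −1.58, and the mitochondrial share of counts given above is made of the same genes. MT-CO1, a subunit of cytochrome oxidase, had 1458 and 1471 CPM under WT ALT and 6313 and 5919 CPM under DPBS (−2.06 ± 0.34), and MT-ND6 had 54.2 and 51.7 CPM against 264 and 223 CPM (−2.2 ± 0.34). The 12S ribosomal RNA gene MT-RNR1 had 627 and 607 CPM against 306 and 249.9 CPM and rose by 1.15 ± 0.26, a call that was lost without DPBS 2 or WT ALT 1 (adjusted p 0.0693 and 0.0567). Without DPBS 1 or without WT ALT 2, 1 rose and 2 fell, without WT ALT 1 3 fell and without DPBS 2 6 fell. MT-CO1 was at 1807 and 4735 CPM in the aegl KO ALT libraries, the first of which has the lowest mitochondrial share, and 1 rose and 14 fell without that library. With DESeq2 1 rose and 4 fell. Of 78 tested cytosolic ribosomal protein genes 1 fell, with the median at −0.14, and 2 fell without DPBS 2.

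Protein-coding genes that rose at least 2-fold (493) spanned a median of 20.1 kb with 9 exon blocks, those that fell at least 2-fold (549) spanned 27.3 kb with 8, and those not called (9770) spanned 32.4 kb with 11. All tested protein-coding genes (13184), those called below 2-fold included, spanned a median of 32.7 kb with 11. Genes named ZNF and a number made up 8.20% of those that fell at least 2-fold, 3.25% of those that rose and 2.75% of those not called. On chromosome 19, where many such genes lie in clusters (198 of the 404 tested), 22 of 198 rose and 39 fell. Of all tested genes 11.6% rose and 11.3% fell, so the rises were near the share of all genes. These medians and shares are descriptions of gene classes without a test, and on chromosome 19 9 rose and 19 fell without DPBS 1, 12 rose and 31 fell without DPBS 2, 8 rose and 19 fell without WT ALT 1, and 11 rose and 22 fell without WT ALT 2.

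The same extract was then compared between lines, by testing the difference between the effect in NCI-H292 and the effect in NCI-H1437. Cell line and experiment cannot be told apart in this difference. Of 18604 genes tested jointly, the change was higher in NCI-H292 for 782 (4.2%) and lower for 874 (4.7%), 1656 (8.9%) in all. Fewer were called with WT ALT 1 (841), WT ALT 2 (894) or DPBS 1 (1036) of H292-1 left out, or with WT ALT 2 (1031), DPBS 1 (922) or DPBS 2 (951) of H1437-4 left out. All 9 NRF2 targets that fell in NCI-H292 had a lower change there than in NCI-H1437, and 8 or 9 had one when any 1 library was left out. In NCI-H1437 itself, 4 of the 11 listed targets fell and 1 rose, with a median of −0.08, where 17.1% of all genes fell and 15.8% rose. HMOX1 had 243 and 271 CPM under WT ALT and 490.2 and 479 CPM under DPBS in NCI-H1437, a change of −0.92 ± 0.06. For this gene the difference between lines was −4.15 ± 0.22 (adjusted p = 3.66e-09). AKR1C1 was at 5337 and 5895 CPM under WT ALT and 5526 and 5588 CPM under DPBS in NCI-H1437, well above its level in NCI-H292, and the difference of the changes was −3.62 ± 0.23. For AKR1C2 the difference was −4.8 ± 0.16, for ALDH3A1 −3.94 ± 0.20 and for NQO1 −0.90 ± 0.14.

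The early factors and their feedback inhibitors divided between the lines. MYC, which rose in NCI-H292, was at 315 and 315 CPM under WT ALT and 305 and 290.4 CPM under DPBS in NCI-H1437, with a difference of 2.29 ± 0.18 (adjusted p = 4.46e-07). Changes were also higher in NCI-H292 for FOS (2.02 ± 0.23), KLF2 (3.0 ± 0.50), DUSP6 (3.18 ± 0.17), CCN1 (2.6 ± 0.20), HBEGF (1.83 ± 0.23), PTGER4 (3.26 ± 0.47) and DNAJB1 (1.47 ± 0.13). MYADM, a membrane protein of lipid rafts, had 26.2 and 24 CPM under WT ALT and 0.981 and 0.901 CPM under DPBS in NCI-H292, and 64.1 and 73.3 CPM against 46.5 and 45.5 CPM in NCI-H1437, a difference of 4.12 ± 0.20. JUNB fell in NCI-H292 but had 397 and 336 CPM under WT ALT and 68.8 and 62.8 CPM under DPBS in NCI-H1437, a difference of −3.32 ± 0.17 (adjusted p = 3.14e-09). CDKN1A was likewise lower under WT ALT in NCI-H292 and was at 95.9 and 121 CPM against 17.7 and 15.8 CPM in NCI-H1437 (−3.59 ± 0.16), and the antiproliferative BTG2 was at 97.9 and 98.6 CPM against 116 and 100.1 CPM in NCI-H292 and 63.7 and 42.6 CPM against 4.03 and 5.14 CPM in NCI-H1437 (−3.72 ± 0.26). ATF3, PPP1R15A and NFKBIA rose in both lines, with differences of −2.22 ± 0.25, −2.16 ± 0.19 and −1.29 ± 0.17. Of the ERK feedback and output genes 9 had a higher change in NCI-H292 and 1 a lower one, and of the NF-kB feedback genes 1 a higher and 11 a lower one. For the ERK list 7 to 9 were higher without any 1 library, and a lower change was called in 1 gene without DPBS 1 of H292-1 and in no gene without any other library. For the NF-kB list a higher change was called in 1 gene without DPBS 2 of H292-1 and in no gene without any other, and 7 were lower without WT ALT 2 of H292-1 or DPBS 1 of H1437-4 and 8 to 10 without any other.

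**Figure D4:**
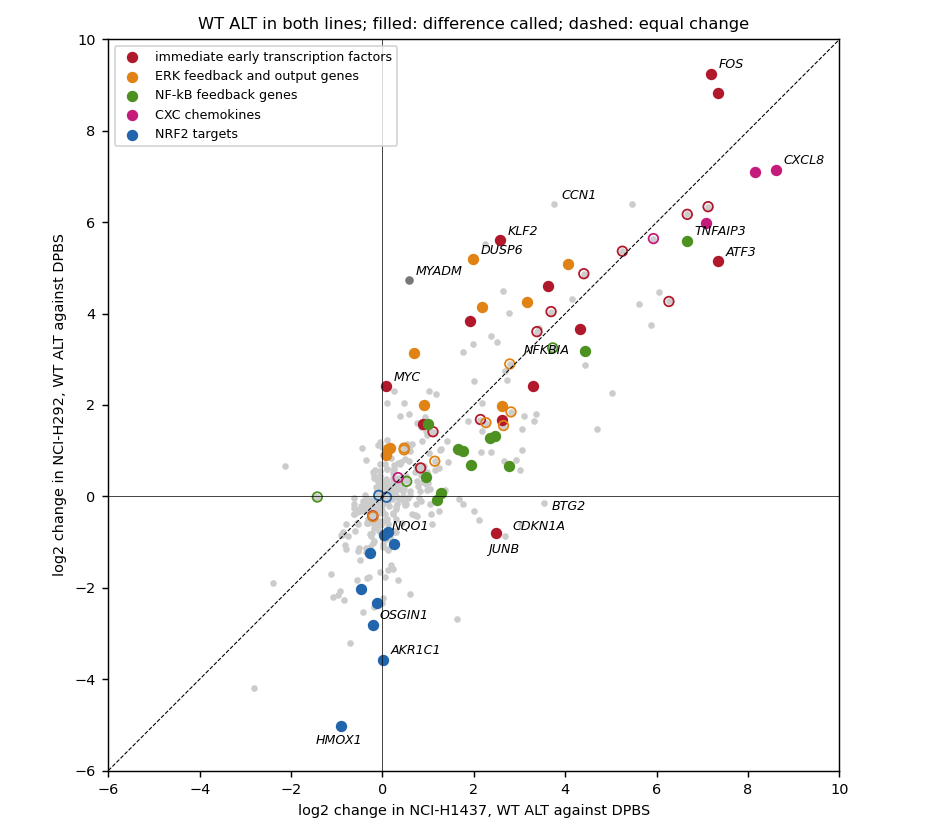
Log2 change under WT ALT against DPBS in NCI-H292 (vertical) and NCI-H1437 (horizontal) for 389 list members with counts in all 4 groups, and MYADM. Coloured points belong to 5 lists and are filled where the difference between lines passed the test. NRF2 targets (blue) spread downwards near a change of 0 in NCI-H1437, and most NF-kB feedback genes (green) lie below the dashed line of equal change.

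By the naming rule, the 10 largest differences below 0 all had a group with 0 counts, as had 7 of the 10 largest above 0, so that their fitted sizes set no bound and are not given. IL6 is one of them: it had 129.6 and 90.5 CPM under WT ALT in NCI-H1437 and 0 counts under DPBS. Over 14870 genes tested in both experiments, the changes had a Pearson r of 0.46 and a Spearman rho of 0.40 across genes, which are not independent replicates. Of 556 genes that rose at least 2-fold in NCI-H292 and were tested in both, 333 rose and 13 fell in NCI-H1437. Of 609 that fell at least 2-fold, 245 fell and 27 rose there. Of all genes, 15.8% rose and 17.1% fell in NCI-H1437 (32.8% in all). Of 79 tested cytosolic ribosomal protein genes, 68 rose and 0 fell in NCI-H1437, with a median of 0.30. Of 80 tested jointly, 6 had a lower change in NCI-H292 and 0 a higher one, with a median difference of −0.44.

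The extract was last set against the joined proteins Aeg-S/L in the same line. Stimulus and experiment cannot be told apart here. Few genes differed: of 17347 tested jointly, the change under WT ALT was higher for 23 (0.133%) and lower for 142 (0.819%) than under Aeg-S/L. The total of 165 (0.951%) fell to 58 without WT ALT 1, 54 without WT ALT 2, and 82 or 92 without DPBS 1 or DPBS 2 of H292-1. In H292-2 it fell to 48 or 55 without Aeg-S/L 1 or Aeg-S/L 2, and 49 or 42 without DPBS 1 or DPBS 2. Of 597 genes that rose at least 2-fold under WT ALT and were tested in both, 537 rose and 2 fell under Aeg-S/L, where of all genes 22.1% rose and 21.1% fell (43.2% in all), with medians of 1.46 under WT ALT and 1.48 under Aeg-S/L. Of 678 that fell at least 2-fold, 552 fell and 1 rose, with medians of −1.58 and −1.44 in that order. Across 15981 genes r was 0.73 and rho 0.69. Of 77 tested cytosolic ribosomal protein genes, 68 rose and 1 fell under Aeg-S/L, with a median of 0.31. Their change was called different between the stimuli in 0 of 78, with a median difference of −0.43. At an unadjusted p under 0.05 in edgeR, the change was lower under WT ALT in 37 of the 78. In the NRF2 list 10 of 11 members fell under Aeg-S/L, with a median of −1.32. For 0 of the 11 did the change differ between the stimuli at an adjusted p under 0.05 in edgeR, for 1 at an unadjusted p under 0.05, and for 1 with DESeq2. HMOX1 had 2.92 and 2.87 CPM under Aeg-S/L and 77.3 and 79.8 CPM under its DPBS. FOS had 2326 and 2271 CPM under Aeg-S/L and 3.84 and 5.08 CPM under its DPBS, and the difference between the stimuli was 0.21 ± 0.23 (adjusted p = 0.764). For MYC it was 0.01 ± 0.22 and for DUSP6 0.13 ± 0.20. A p that misses the threshold does not show that the changes are equal.

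Where the stimuli differed, the change was mostly lower under the extract. EGR1 had 2154 and 2108 CPM under Aeg-S/L and 7.06 and 8.63 CPM under its DPBS, and the difference of the changes, WT ALT minus Aeg-S/L, was −1.78 ± 0.35 (adjusted p = 0.0209). That call was lost in 7 of 8 cases of leaving out a library (adjusted p 0.075 to 0.186), all but that without DPBS 1 of H292-1. Differences were also below 0 for NR4A3 (−1.53 ± 0.24, lost without DPBS 1 of H292-2 at an adjusted p of 0.0602), NFKBIZ (−1.66 ± 0.23), SOCS3, an inhibitor of IL-6 signalling (−1.71 ± 0.19), and BTG1 (−1.15 ± 0.12). PLAU, which encodes urokinase, had 6.09 and 5.76 CPM under WT ALT and 4.09 and 3.91 CPM under its DPBS, but 26.3 and 28.2 CPM under Aeg-S/L and 5.0 and 2.99 CPM under its DPBS (−2.25 ± 0.33). IL6R was lower under WT ALT, and under Aeg-S/L it was at 13.4 and 9.73 CPM, against 22.6 and 21.3 CPM under its DPBS (−1.65 ± 0.24). Above 0 were ID1, a target of BMP signalling, with 141 and 157 CPM under WT ALT and 152 and 168 CPM under its DPBS, and 68.7 and 66.5 CPM under Aeg-S/L and 155 and 152 CPM under its DPBS (1.04 ± 0.14), and VAMP7, a vesicle fusion protein, with 1.21 and 1.05 CPM against 0.933 and 0.571 CPM and 0.609 and 0.651 CPM against 10.4 and 10.9 CPM (4.6 ± 0.51). For VAMP7 the DPBS libraries of the 2 experiments stood far apart, and the Aeg-S/L libraries lay near those of H292-1.

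**Figure D5:**
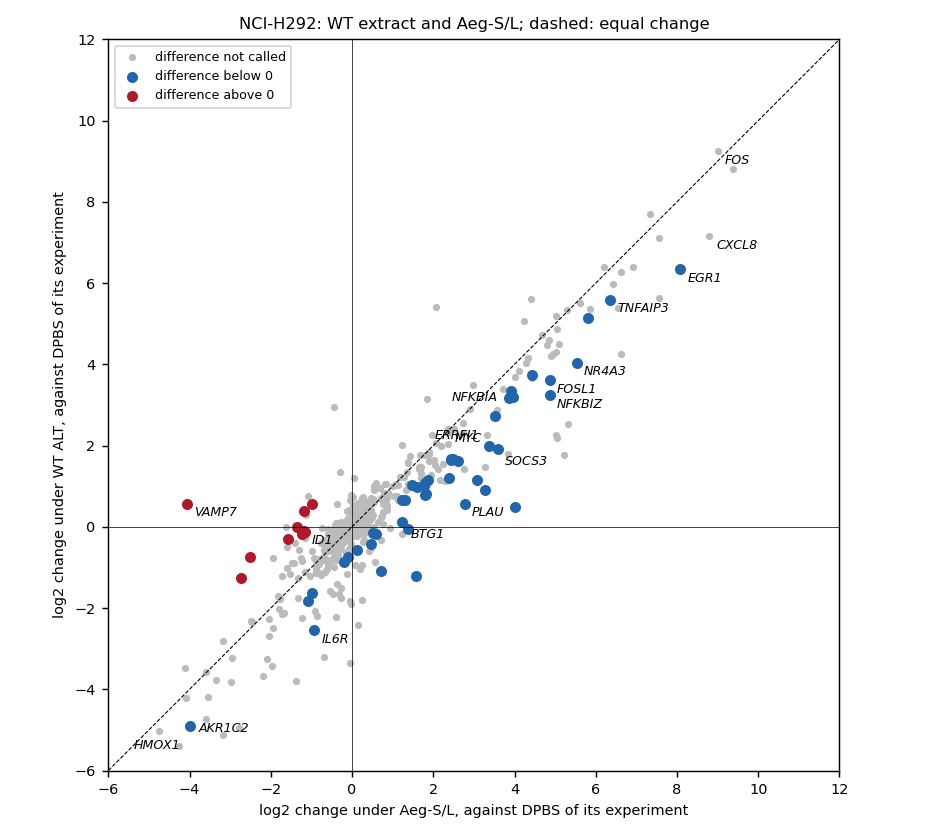
Log2 change in NCI-H292 under WT ALT (vertical) and under Aeg-S/L (horizontal), each against DPBS of its own experiment, for 442 named genes with counts in all 4 groups. Of these, 45 with a difference below 0 (blue) lie under the dashed line of equal change and 10 with a difference above 0 (red) lie over it, while FOS, MYC and HMOX1 lie near it.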

How the data were processed

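The authors deposited raw fragment counts per gene, unscaled and 1 column a library. Per the submitters' processing notes, HISAT2 2.2.1, SAMtools, featureCounts 2.0.2 and the builds hg19 and mm10 were used (DESeq2 1.36.0 and R 4.2.2 are also named). The labels' protocols name the RNAprep Pure and NEBNext Ultra RNA kits. This library kit does not mark strand, so reads of overlapping genes cannot be split, and closely related copies may share them. Gene names were matched for 51996 of 57820 IDs through a table of gene names.

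Counts were scaled by TMM, filtered with filterByExpr and tested with edgeR 4.0.16 (quasi-likelihood F test, limma 3.58.1, R 4.3.3) over all 8 libraries of H292-1, with Benjamini-Hochberg adjustment over all genes tested and calls at an adjusted p under 0.05. All p-values of single genes are from this test. The errors printed after log2 changes were worked back from the size of each change and the F statistic of its test. They thus carry the same information as the p-value and are no separate measure of precision, which 2 libraries a group limit. Differences between experiments are interaction contrasts in joint fits of 16 libraries. The contrast recovered 71% of genes changed by 1 and 98% changed by 2 on the log2 scale in simulated data, with 14 false calls of 183 over 16092 genes. There, a small set of genes above 1 CPM was changed and the KO groups were set at the DPBS level. Each gene had the same spread in all groups. The data have more changed genes and unequal spread, so these rates may not hold for them.

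Members and lists were chosen with earlier results of these data known. Genes are named as list members, as the 20 largest increases or decreases with at least 1 CPM and no overlap between groups, or as the 10 largest differences between experiments on each side. Alternatives were DESeq2 1.42.0, its size factors, no filter, fewer libraries and the replicate number as a block. Chi-square per degree of freedom between replicates was 4.22 under WT ALT and 27.9 under DPBS, so none were counted as a single library. It was 57.3 with aegl KO ALT and 71.4 with aegs KO ALT, so the spread shared by the 8 libraries joins groups of unequal spread. Some listed genes are counted in their lists and not reported by name here.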

Additional observations from a re-analysis of the deposited data

Results flagged for a closer look

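The results here differed between groups by a test of the difference itself, in joint fits with edgeR, and no explanation was weighed. Between lines, 1656 genes had a different change under WT ALT in NCI-H292 than in NCI-H1437. On the log2 scale, NCI-H292 minus NCI-H1437, the difference was −4.8 for AKR1C2, −4.15 for HMOX1, −3.94 for ALDH3A1, −3.72 for BTG2, −3.62 for AKR1C1, −3.59 for CDKN1A, −3.32 for JUNB, −2.22 for ATF3, −2.16 for PPP1R15A, −1.29 for NFKBIA and −0.90 for NQO1. It was above 0 for MYADM (4.12), PTGER4 (3.26), DUSP6 (3.18), KLF2 (3.0), CCN1 (2.6), MYC (2.29), FOS (2.02), HBEGF (1.83) and DNAJB1 (1.47). JUNB and CDKN1A fell in NCI-H292 and rose in NCI-H1437, by 2.48 ± 0.08 and 2.69 ± 0.11.

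Between stimuli in NCI-H292, 165 genes differed. The difference, WT ALT minus Aeg-S/L, was −2.25 for PLAU, −1.78 for EGR1, −1.71 for SOCS3, −1.66 for NFKBIZ, −1.65 for IL6R, −1.53 for NR4A3 and −1.15 for BTG1. It was 1.04 for ID1 and 4.6 for VAMP7. For VAMP7 the DPBS libraries of the experiments stood far apart, while the WT ALT and Aeg-S/L libraries did not.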

How the results depend on the processing

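Each group holds 2 libraries, which limits the precision. The count of 3798 genes called in NCI-H292 ranged between 1481 and 2519 without any 1 of the 4 libraries, and 5718 genes were called with only the 4 WT ALT and DPBS libraries in the fit. The 1656 differences between lines ranged between 841 and 1436 with a library left out. The 165 differences between stimuli ranged between 42 and 92, and became 298 with DESeq2 and 503 without the filter on low counts. The 270 called list members, counted once each, ranged between 175 and 217. Where 1 library was left in a group, its spread was assumed to equal that elsewhere. The first count was 4158 with DESeq2, 4520 without the filter and 3789 with DESeq2 size factors. Numbers were not taken to pair the libraries: over 16613 genes, deviations of libraries with the same number had a correlation of −0.01 between WT ALT and DPBS, and between −0.065 and 0.26 over the pairs of NCI-H292 groups, the highest between aegs KO ALT and DPBS. With the replicate number as a block, 3882 genes were called in NCI-H292, 1676 between lines, 156 between stimuli and 276 list members. Without aegl KO ALT 1, an alternative chosen after seeing the data, the counts were 4020, 2014, 202 and 283. Of the named genes with values here, ME1, near 0 and not called, changed sign: it ranged between −0.029 and 0.074 without 1 of the 4 libraries.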
